A study of Homo sapiens with 9 samples.

Results

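Metallothioneins are small, cysteine-rich proteins that bind zinc and copper in the cytosol and take up toxic metals such as cadmium. When free zinc rises, the zinc-finger factor MTF1 enters the nucleus, binds metal response elements in metallothionein promoters and also switches on SLC30A1, which pumps zinc out of the cell. Zinc transporters of the SLC30 family move zinc out of the cytosol, and those of the SLC39 family move it in. Glucocorticoids can also raise MT2A.

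This small system was followed in RNA-seq libraries of MM1S, an established human multiple myeloma line. Its 9 genes were taken by symbol from the 58387 genes of the deposited count table, and all 9 were found. They are the metallothionein genes MT2A, MT1X, MT1E, MT1F, MT1G, MT1H and MT1M, the regulator gene MTF1 and the exporter gene SLC30A1. They were chosen by symbol with their CPM in each of these libraries (counts scaled for library size and composition) in view, so the levels and differences of these 9 genes are given as a description, without a test.

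The groups were cells with an empty lentiviral vector (shEV, n = 3), cells with an shRNA against PHF19 (PHF19_KD, n = 3) and such knockdown cells with shRNA-resistant PHF19 added back (KD_Rescued, n = 2). All grew in RPMI1640 with serum, with no metal treatment named in the labels. PHF19 belongs to the accessory proteins of the Polycomb complex that methylates histone H3. The labels do not say that libraries of a group came from separate cultures, and within each group the libraries share the stem of their names. The p-values therefore measure only the spread between libraries, which may be technical. A further library, titled as a knockdown but tagged with the resistant construct, was kept apart from every group. Both KD_Rescued libraries were named for lane 2 and all others for lane 6, and an effect of the lane cannot be told apart from that of the rescue.

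Column totals were 16974700 to 22739700 counts in shEV, 10609800 to 12024900 in PHF19_KD and 23644100 to 23751400 in KD_Rescued, with 10164100 in the library kept apart. PHF19 was at 116 ± 11.8 CPM in shEV, 26.9 ± 0.859 in PHF19_KD (SD, n = 3 each) and 218 ± 1.73 in KD_Rescued (SD, n = 2), and at 63.8 CPM in the library kept apart. All 10 measured plasma cell markers had counts, with a summed level of 11245 to 12269 CPM in shEV, 8434 to 8539 CPM in PHF19_KD and 10404 to 10463 CPM in KD_Rescued. The largest part was IGJ, with means of 6659, 2792 and 5665 CPM in that order. Of the 10 markers, 4 were called higher and 4 lower in the knockdown (edgeR, adjusted p under 0.05). Of all tested genes, 34.9% were called higher and 34.2% lower. Some markers of other cell types moved with the knockdown. The sum of 7 fibroblast markers was 2.53 to 2.78 CPM in shEV, 9.87 to 10.6 CPM in PHF19_KD and 0.956 to 1.54 CPM in KD_Rescued, mostly from PDGFRB (means 2.02, 7.64 and 0.854 CPM) and COL1A1 (0.578, 2.54 and 0.375 CPM). The sum of 8 monocyte markers was 20.3 to 23.3, 26.5 to 31.3 and 9.74 to 10.5 CPM in the same order, mostly from CD68 (20.6, 26.6 and 9.25 CPM), while ITGAM was at 0.613, 2.72 and 0.643 CPM. These 4 genes rose in the knockdown, as did the epithelial marker KRT18 (0.273, 0.871 and 0.266 CPM). The 5 epithelial markers summed to 0.284 to 0.894, 0.758 to 1.35 and 0.375 to 0.464 CPM, and the 8 T and NK cell markers to 1.75 to 2.36, 1.58 to 2.15 and 2.37 to 2.58 CPM. The T cell marker CD3E fell in the knockdown, at 1.08, 0.434 and 1.58 CPM in the same order. CD8A of the same list, too low to be tested, went the other way, at 0.0337, 0.433 and 0.104 CPM. At 0 in every library were LUM and PDGFRA of the fibroblast list, S100A8 and FCGR3A of the monocyte list, CD3D and NKG7, and KRT19. The part of these markers in the results was not tested. Fewer expressing cells and less RNA per cell cannot be told apart in such bulk samples.

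MT2A and MT1X carried nearly all of the metallothionein signal, and both were scarce. Between 94.6% and 100% of the counts of the 7 metallothionein genes in a library belonged to this pair. MT2A, a widely expressed metallothionein, had estimated counts of 49.9, 45.5 and 30.1 in shEV replicates 1 to 3, of 2, 2.19 and 2.08 in PHF19_KD replicates 1 to 3, and of 36.0 and 54.6 in the 2 KD_Rescued libraries. As normalised CPM these were 2.25, 2.30 and 1.78 in shEV, 0.186, 0.181 and 0.180 in PHF19_KD, and 1.497 and 2.28 in KD_Rescued. Every knockdown library thus lay below every control and every rescued library, and the rescued libraries overlapped the controls.

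MT2A averaged 2.11 ± 0.291 CPM in shEV, 0.182 ± 0.00308 CPM in PHF19_KD (SD, n = 3 each) and 1.89 ± 0.551 CPM in KD_Rescued (SD, n = 2). PHF19_KD differed from shEV by a fitted log2 fold change of -3.55 ± 0.38 (SE), and the change was 3.39 ± 0.40 between KD_Rescued and PHF19_KD and -0.17 ± 0.25 between KD_Rescued and shEV. The comparisons share libraries, so the differences on knockdown and on rescue are not independent of each other. Pooled over libraries, 6 counts in PHF19_KD stood against 126 in shEV, a level 12.3-fold lower with an exact 95% counting interval of 5.48 to 34.1. The equal values of the 3 knockdown libraries come from about 2 counts each, so their SD understates the counting error. Such intervals cover counting error only, and take no account of the choice of genes with these values in view.

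MT1X, which binds metals in the same way, was also lower in the knockdown libraries, by less. Its estimated counts were 50.3, 54.5 and 36.9 in shEV, 13.0, 16.7 and 16.8 in PHF19_KD, and 55.9 and 53.9 in KD_Rescued. In normalised CPM it was 2.27, 2.75 and 2.17 in shEV, 1.21, 1.38 and 1.46 in PHF19_KD, and 2.32 and 2.25 in KD_Rescued. The knockdown libraries again lay below every control and every rescued library, and rescued and control libraries overlapped. On the log2 scale PHF19_KD differed from shEV by -0.81 ± 0.21 (SE), and the change was 0.74 ± 0.23 between KD_Rescued and PHF19_KD and -0.06 ± 0.20 between KD_Rescued and shEV. By pooled counts MT1X was 1.77-fold lower in PHF19_KD than in shEV, with an exact 95% counting interval of 1.26 to 2.51.

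The balance of the pair differed in the knockdown. Of the MT2A and MT1X counts of a library, MT2A made up 49.8%, 45.5% and 44.97% in shEV, 13.3%, 11.6% and 10.99% in PHF19_KD, and 39.2% and 50.3% in KD_Rescued. This share does not depend on the scaling between libraries. It is a share of counts and says nothing of which gene is more abundant per length. In PHF19_KD it rests on 6 counts of MT2A and 47 of MT1X, pooled over libraries. Summed over the 7 metallothionein genes, the level was 4.58 ± 0.494 CPM in shEV, 1.59 ± 0.176 CPM in PHF19_KD (SD, n = 3 each) and 4.28 ± 0.540 CPM in KD_Rescued (SD, n = 2). The log2 ratio of group means was -1.53 between PHF19_KD and shEV, 1.43 between KD_Rescued and PHF19_KD and -0.10 between KD_Rescued and shEV.

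**Figure D1:**
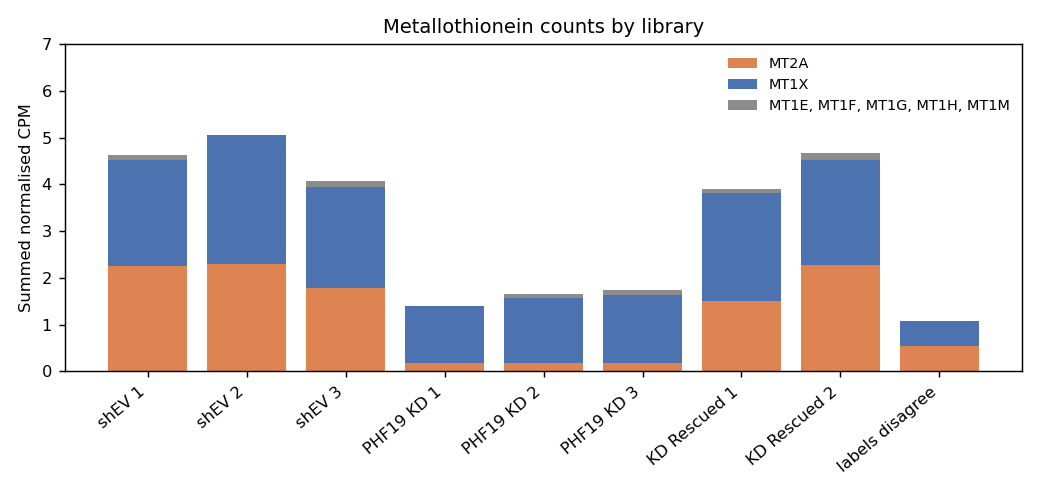
Summed normalised CPM (vertical axis) of the 7 metallothionein genes in each library, with bar segments for MT2A, MT1X and the other 5 genes. The 3 PHF19_KD libraries reach 1.39 to 1.73 CPM and the shEV libraries 4.07 to 5.05 CPM, and the MT2A segment is small in PHF19_KD.

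The library kept apart for its labels was low for both genes but not in their balance. It held 5.40 estimated counts of MT2A and 5.60 of MT1X, or 0.534 and 0.553 CPM. Its MT1X level was below that of every other library, its MT2A level lay between the knockdown and the rescued libraries, and MT2A made up 49.1% of the pair, as in shEV.

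The remaining metallothionein genes were close to silent in all groups. MT1E, MT1H and MT1M had 0 counts in all 9 libraries, out of 151757000 counts in all. A count of 0 allows up to 3 counts in a group, or 0.0509 CPM in shEV, 0.0872 CPM in PHF19_KD and 0.0624 CPM in KD_Rescued. MT1F had at most 2 counts in any library and 9.15 in total, and MT1G had 2.37 estimated counts in 1 KD_Rescued library and 0 elsewhere. A difference between groups was not detectable for these genes at this depth. Of 13 further metallothionein genes and pseudogenes in the table, among them MT1A, MT1B, the brain form MT3 and the epithelial form MT4, 8 had 0 counts everywhere and the others 15.98 estimated counts in total.

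Reads of this family can be divided among its members. The estimated counts of MT2A and of MT1X were not whole numbers in 8 of 9 libraries each. In GENCODE 29 transcripts, 7.25% of the distinct 31-base words of MT2A and 5.30% of those of MT1X also occurred in another metallothionein gene or pseudogene, against 27.7% for MT1H and 23.8% for MT1M. The pseudogene MT2P1, which shares most words with MT2A, had 3 counts in PHF19_KD and 0 in shEV. Counting every listed metallothionein gene and pseudogene together changed the log2 ratio between PHF19_KD and shEV from -1.53 to -1.34.

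Promoter sequences are shown to set the expressed pair beside a gene of the same cluster without counts. RefSeq promoter sequences (GRCh38.p14, a later build than the hg19 of the processing notes) were at hand for 5 of the 9 genes, not for MT1E, MT1F, MT1G and MT1M. The 250 bases before the transcription start are given for MT2A and MT1X, for MT1H and for SLC30A1, 5′ to 3′ on the gene's strand. Capitals mark matches on either strand to the core of the metal response element, searched as TGCACNC and TGCGCNC, and neighbouring matches could overlap.
MT2A lies at chr16:56608334-56608583 on the plus strand.
MT2A: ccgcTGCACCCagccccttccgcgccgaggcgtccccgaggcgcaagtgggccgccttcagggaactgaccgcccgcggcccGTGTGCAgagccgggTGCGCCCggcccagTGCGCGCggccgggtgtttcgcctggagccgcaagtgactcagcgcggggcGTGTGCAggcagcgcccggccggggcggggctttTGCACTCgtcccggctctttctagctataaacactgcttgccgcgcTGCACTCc
MT1X lies at chr16:56682220-56682469 on the plus strand.
MT1X: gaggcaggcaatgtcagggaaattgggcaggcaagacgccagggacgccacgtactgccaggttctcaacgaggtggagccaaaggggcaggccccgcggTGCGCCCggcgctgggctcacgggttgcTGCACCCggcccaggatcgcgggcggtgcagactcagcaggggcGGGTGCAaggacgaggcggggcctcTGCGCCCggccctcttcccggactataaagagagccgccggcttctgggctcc
MT1H lies at chr16:56669564-56669813 on the plus strand.
MT1H: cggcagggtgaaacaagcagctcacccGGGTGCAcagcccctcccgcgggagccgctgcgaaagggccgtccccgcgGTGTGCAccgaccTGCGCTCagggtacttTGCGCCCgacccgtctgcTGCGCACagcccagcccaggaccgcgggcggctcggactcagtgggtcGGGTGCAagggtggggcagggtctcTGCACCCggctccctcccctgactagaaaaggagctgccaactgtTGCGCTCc
SLC30A1 lies at chr1:211579162-211579411 on the minus strand.
SLC30A1: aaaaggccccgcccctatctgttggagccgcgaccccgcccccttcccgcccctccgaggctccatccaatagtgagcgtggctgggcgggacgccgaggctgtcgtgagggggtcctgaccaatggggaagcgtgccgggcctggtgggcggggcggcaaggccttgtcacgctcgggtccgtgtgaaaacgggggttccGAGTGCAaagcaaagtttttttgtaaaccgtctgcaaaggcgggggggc

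The core occurred 7 times before MT2A, 4 times before MT1X, 8 times before MT1H, 1 time before SLC30A1 and 0 times before MTF1. Of 35116 RefSeq promoters of this length, 24.8% held at least 1 match, 0.370% held at least 4, 0.031% at least 7 and 0.017% at least 8. MT1H, with 0 counts in every library, held 1 match more than MT2A. The ratio of observed to expected CpG was 0.957 for MT2A, 0.727 for MT1X, 0.711 for MT1H, 0.808 for SLC30A1 and 0.658 for MTF1, against a median of 0.558 over all promoters. A match is a run of letters, not a shown binding site.

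**Figure D2:**
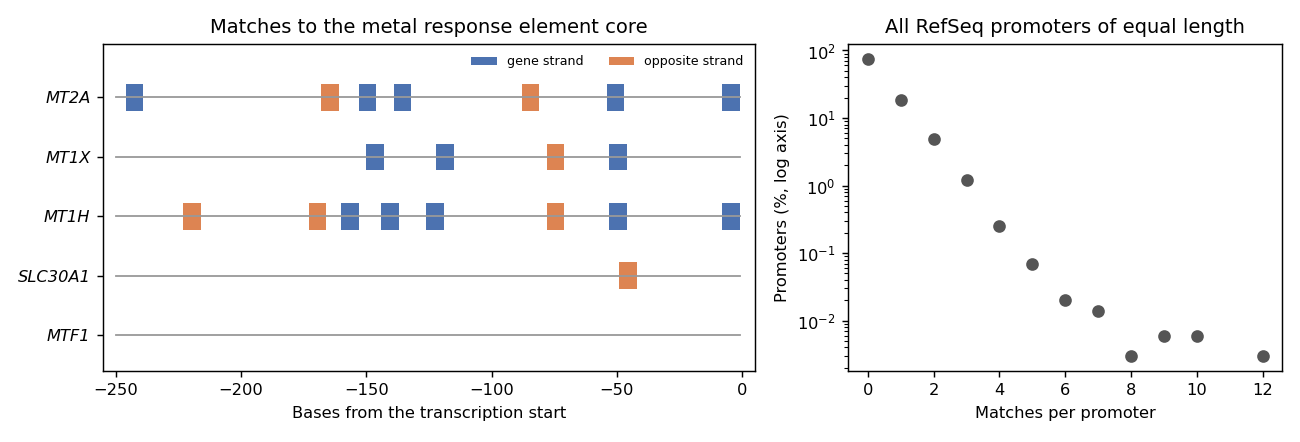
The left panel places each match to the metal response element core by its distance in bases from the transcription start, coloured by strand. The right panel gives the percentage of all RefSeq promoters (log axis) by number of matches, where MT2A (7), MT1H (8) and MT1X (4) sit in the sparse right part.

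Genes on either side of the metallothionein cluster were read for comparison, and those that were expressed differed between groups in both directions. These neighbours were chosen after the metallothionein values had been seen, from the order of protein-coding genes in the RefSeq table, where no other protein-coding gene lies between MT4 and MT1X. On the MT4 side, BBS2, a ciliary trafficking gene, had 26.6 ± 1.14 CPM in controls and 49.7 ± 3.31 CPM in knockdown libraries. OGFOD1, a prolyl hydroxylase gene, went from 79.3 ± 4.69 to 42.7 ± 1.58 CPM (SD, n = 3 each). On the MT1X side, the nuclear pore gene NUP93 went from 75.5 ± 0.780 to 38.5 ± 1.71 CPM (SD, n = 3 each). Their log2 fold changes were 0.91 ± 0.07, -0.89 ± 0.06 and -0.97 ± 0.05 (SE). In KD_Rescued the 3 genes stood at 29.9, 74.1 and 73.3 CPM. Among other flanking genes, HERPUD1 was also higher in PHF19_KD, and NUDT21 was also lower. Of all tested genes, 34.9% were called higher and 34.2% lower in PHF19_KD, and 72% had groups without overlap. SLC12A3 and CETP, on the MT1X side, did not pass the filter, with 0.0862 and 0.0498 CPM in shEV. They were at 0.295 and 0.382 CPM in PHF19_KD and at 0.229 and 0.0623 CPM in KD_Rescued.

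MTF1, the metal-sensing activator, moved little. Its normalised CPM was 28.999, 25.6 and 29.4 in shEV, 24.9, 21.5 and 23.9 in PHF19_KD, and 28.2 and 28.3 in KD_Rescued. All knockdown libraries were below the others, the nearest by less than the spread within shEV. PHF19_KD differed from shEV by -0.26 ± 0.08 on the log2 scale (SE), and the change was 0.27 ± 0.09 between KD_Rescued and PHF19_KD, and with upper-quartile scaling it was -0.10 and 0.12. That scaling moved the median of all tested genes by 0.16 and -0.15 in these comparisons.

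SLC30A1, the plasma membrane zinc exporter and another MTF1 target, went the other way from the metallothioneins by a small amount. It was at 123, 127 and 132 CPM in shEV, 145, 134 and 142 CPM in PHF19_KD, and 141 and 131 CPM in KD_Rescued. The knockdown libraries lay just above the controls, and the rescued libraries overlapped both. Its log2 difference from shEV was 0.14 ± 0.05 (SE) in PHF19_KD, with -0.04 ± 0.06 between KD_Rescued and PHF19_KD and 0.10 ± 0.05 between KD_Rescued and shEV. The first of these was 0.05 without a filter on low counts, 0.24 with a filter at 5 CPM and 0.30 with upper-quartile scaling.

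Of the 9 genes, 4 passed the filter on low counts, namely MT2A, MT1X, MTF1 and SLC30A1, and MT2A passed through the control and rescued libraries. In the fit over all 16600 tested genes, these 4 were called between PHF19_KD and shEV, where 69.1% of all tested genes were called and 72% had groups without overlap. Between KD_Rescued and PHF19_KD 3 were called against 63.4% of all genes, with 77.2% free of overlap. Between KD_Rescued and shEV, where 39.8% of all genes were called (20.7% higher and 19.1% lower) and 61.8% were free of overlap, the 4 genes missed the threshold. Some alternative runs lost the calls of MTF1 and SLC30A1 between PHF19_KD and shEV. Some also lost those of MT1X and MTF1 between KD_Rescued and PHF19_KD. Since the choice of genes used these contrasts, nothing is read from these counts of calls.

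**Figure D3:**
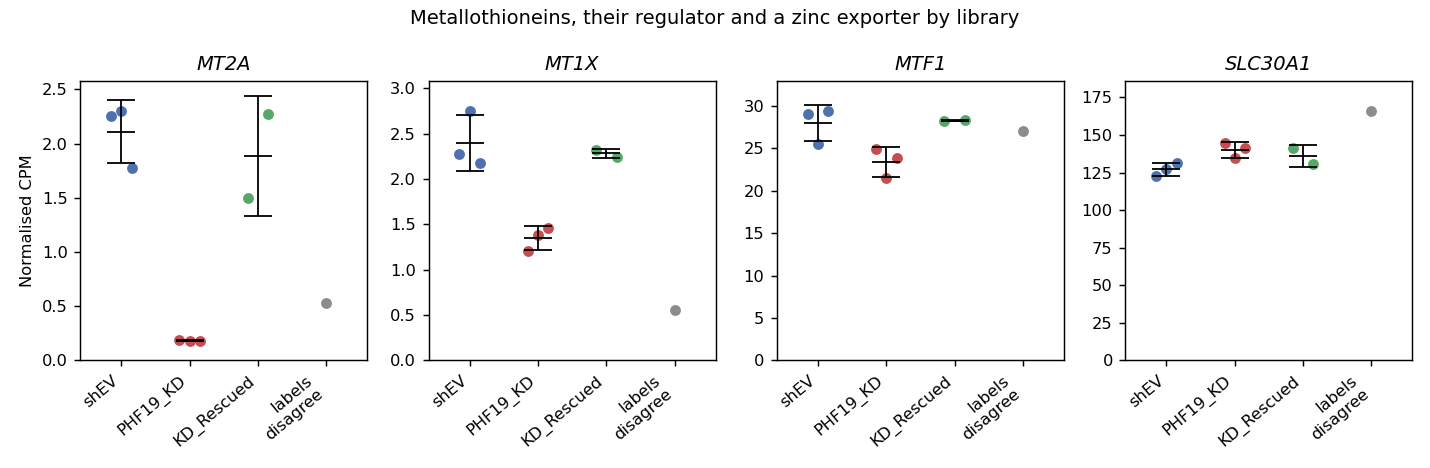
Normalised CPM (vertical axis, from 0) of MT2A, MT1X, MTF1 and SLC30A1, with 1 point per library and bars for mean ± SD of each group. MT2A lies at 0.180 to 0.186 CPM in PHF19_KD and at 1.497 and 2.28 CPM in KD_Rescued, while MTF1 and SLC30A1 differ little between groups.

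The other zinc transporters were mostly lower in the knockdown. Of 24 listed transporter genes other than SLC30A1, 17 passed the filter, and between PHF19_KD and shEV 3 rose and 11 fell (called by edgeR, adjusted over all tested genes). Their median was -0.29 on the log2 scale, beside 0.03 over all tested genes. That is 14 called of 17, against 69.1% of all tested genes, of which 34.9% were higher and 34.2% lower. With upper-quartile scaling 3 rose and 7 fell, while over all genes 7042 were called higher and 4573 lower in place of 5793 and 5683 (on rescue, 4438 and 6109 in place of 5622 and 4904).

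Among importers, 9 of 11 fell and 2 rose. SLC39A8, which carries zinc, manganese and cadmium into cells, was at 152, 158 and 164 CPM in shEV, 76.6, 81.8 and 80.02 CPM in PHF19_KD, and 150 and 146 CPM in KD_Rescued. All knockdown libraries lay far below the controls, and the rescued ones just below them. Its log2 fold change was -0.99 ± 0.05 (SE) in the knockdown (edgeR quasi-likelihood, adjusted p = 3.2e-09) and 0.89 ± 0.05 on rescue (adjusted p = 2.28e-08, same test). SLC39A7, which releases zinc from the endoplasmic reticulum and whose counts were divided among genes in 9 of 9 libraries, went from 135 ± 5.55 to 97.0 ± 5.51 CPM (SD, n = 3 each) and reached 188 ± 4.07 CPM in KD_Rescued (SD, n = 2). Its level after rescue was above the control level by 0.47 ± 0.06 on the log2 scale (SE, edgeR quasi-likelihood, adjusted p = 5.26e-05).

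SLC39A10, a plasma membrane importer with a role in B cells, fell in the knockdown, and its difference on rescue missed the threshold. It was at 38.5, 37.9 and 43.6 CPM in shEV, 26.8, 24.9 and 24.2 CPM in PHF19_KD, and 28.5 and 27.0 CPM in KD_Rescued, so rescued libraries were below all controls. It changed by -0.66 ± 0.07 (SE) in the knockdown (edgeR, adjusted p = 6.97e-06) and by 0.13 ± 0.08 on rescue (edgeR, adjusted p = 0.184). SLC39A13, an importer of intracellular vesicles, rose. It was at 15.4, 14.0 and 12.7 CPM in shEV, 26.4, 28.4 and 25.8 CPM in PHF19_KD, and 23.5 and 23.3 CPM in KD_Rescued. Its log2 fold change of 0.94 ± 0.08 (SE, edgeR quasi-likelihood, adjusted p = 8.28e-07) had a counterpart of -0.20 ± 0.09 on rescue that missed the threshold (adjusted p = 0.0614, same test).

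The other importers changed less in the knockdown than SLC39A8, SLC39A10 and SLC39A13. SLC39A9, SLC39A11 and SLC39A4 changed by -0.48, -0.48 and -0.54 on the log2 scale, beside -0.48 for SLC39A7. SLC39A3, SLC39A6, SLC39A14 and SLC39A1 changed by -0.29, -0.15, -0.16 and 0.16, and each of these 4 calls was lost in at least 1 alternative processing. The importer genes SLC39A2, SLC39A5 and SLC39A12 had at most 3 counts in any library.

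Among exporters other than SLC30A1, 1 rose, 2 fell and 3 were not called. SLC30A5, which loads zinc into the secretory pathway, was at 88.3, 84.3 and 87.7 CPM in shEV, 49.1, 50.01 and 53.8 CPM in PHF19_KD, and 101 and 98.2 CPM in KD_Rescued. Its log2 fold change was -0.77 ± 0.05 (SE, edgeR quasi-likelihood, adjusted p = 6.73e-08) in the knockdown and 0.97 ± 0.06 on rescue (adjusted p = 2.13e-08, same test). SLC30A6, its partner in that pathway, changed by -0.26 ± 0.08 in the knockdown, a call that was lost with upper-quartile scaling (-0.11) and with the filter at 5 CPM (-0.17). SLC30A4, a vesicular exporter, was higher in the knockdown at 9.43 ± 0.585 CPM than in shEV at 6.61 ± 0.275 CPM (SD, n = 3 each). It returned to 6.15 ± 0.207 CPM in KD_Rescued (SD, n = 2). The counts of SLC30A4 and SLC30A5 were divided among genes in 8 of 9 libraries each. SLC30A7, a Golgi exporter, was not called in the knockdown (-0.13 ± 0.08) and rose on rescue to 25.9 ± 1.03 CPM (SD, n = 2) from 14.8 ± 1.02 CPM (SD, n = 3). SLC30A9 and TMEM163, a vesicular zinc transporter, were not called in the knockdown, with -0.10 ± 0.06 and -1.09 ± 0.51 (SE). TMEM163 rested on 1 to 17 counts in a library. The exporter genes SLC30A2, SLC30A3, SLC30A8 and SLC30A10 had at most 7 counts in any library.

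On rescue, 8 of the 17 transporters rose and 2 fell, against 33.9% of all tested genes called higher and 29.5% lower. With upper-quartile scaling 4 rose and 5 fell, and without PHF19_KD replicate 1 6 of the 17 were called in place of 10. Between KD_Rescued and shEV 5 were higher and 4 lower, against 39.8% called of all tested genes.

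**Figure D4:**
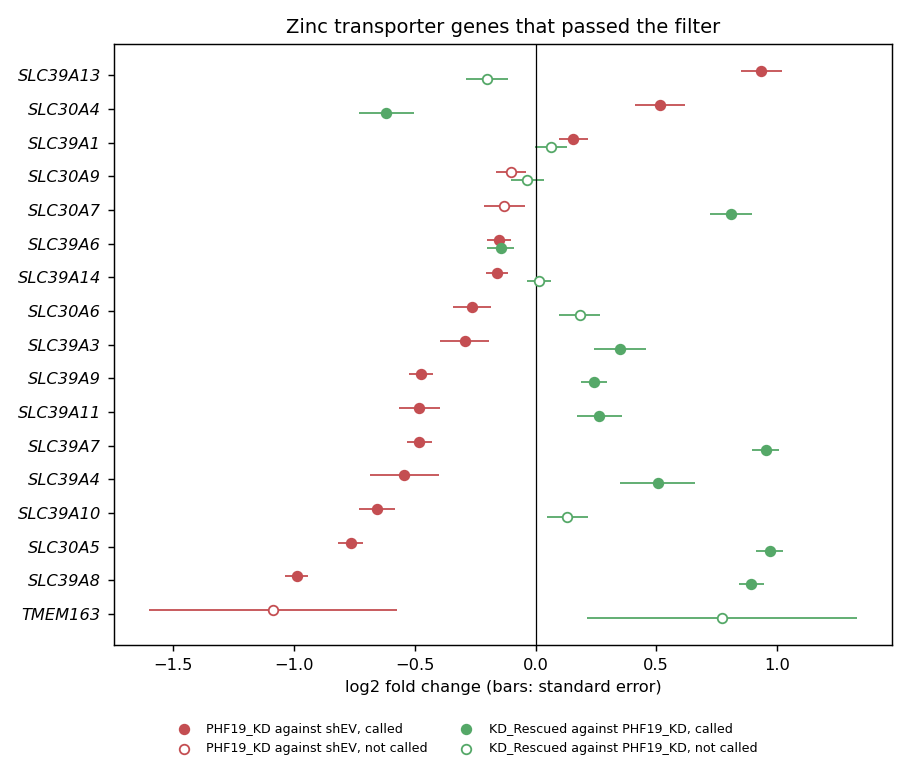
Log2 fold change (horizontal axis, bars for standard error) of the 17 zinc transporter genes that passed the filter, for PHF19_KD against shEV and for KD_Rescued against PHF19_KD. Filled points were called, and the knockdown points run from SLC39A8 at -0.99, the lowest called, to SLC39A13 at 0.94.

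Related metal and redox genes were taken from fixed lists. Of 15 copper handling genes, all tested, 4 rose and 8 fell in the knockdown (69.1% of all genes were called), and the median was -0.26 on the log2 scale. The copper chaperone genes ATOX1 and CCS rose by 0.53 ± 0.05 and 0.75 ± 0.12 (SE), and SOD1, the copper-zinc superoxide dismutase served by CCS, fell by 0.44 ± 0.04. Of 18 tested genes of glutathione, thioredoxin and the oxidative stress factor NFE2L2, 13 fell and the others missed the threshold, with a median of -0.31, where 69.1% of all tested genes were called and 34.2% were lower. SLC7A11, which imports cystine, the source of the cysteine in metallothioneins and glutathione, had 15.998 ± 1.48 CPM in controls and 2.23 ± 0.331 CPM in knockdown libraries (SD, n = 3 each) and 15.1 ± 0.152 CPM in KD_Rescued (SD, n = 2). TXNRD1 and GSR, which reduce thioredoxin and glutathione, changed by -0.85 ± 0.05 and -0.66 ± 0.05 (SE).

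Glucocorticoid response genes, listed because the hormone can induce MT2A, rose and fell as follows. Of 10 tested, 8 rose and 2 fell in the knockdown, where 34.9% of all tested genes were called higher and 34.2% lower, with a median of 0.92. The kinase gene SGK1 went from 82.9 ± 1.49 to 663 ± 3.48 CPM (SD, n = 3 each) and to 95.96 ± 2.002 CPM in KD_Rescued (SD, n = 2), and DUSP1 changed by 1.75 ± 0.05 (SE). FKBP5, of the same list, fell from 86.0 ± 3.47 to 30.9 ± 2.02 CPM (SD, n = 3 each) and returned to 74.2 ± 1.88 CPM (SD, n = 2). The receptor gene NR3C1 was at 120 ± 5.12 and 109 ± 3.20 CPM (SD, n = 3 each). Mitochondrially encoded genes took 2.84% to 3.32% of the counts in shEV, 9.02% to 10.0% in PHF19_KD and 4.99% to 5.18% in KD_Rescued, and without them the log2 fold change of MT2A between PHF19_KD and shEV was -3.58.

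Over the 8 grouped libraries, the genes whose centred log2 profile was nearest to that of the summed metallothioneins, among 13873 genes with a mean of at least 1 CPM, were SNRPG, TIMM10, EBP, SHMT2, EIF4A3 and SNRPB. Their root mean square difference from it was 0.09 to 0.10 on the log2 scale. In the PHF19_KD libraries the metallothionein sum rests on 15, 19.9 and 20 estimated counts. Which genes come nearest is therefore uncertain by counting error. SNRPG and SNRPB encode proteins of the splicing machinery, TIMM10 a chaperone of mitochondrial import, EBP a sterol isomerase, SHMT2 a mitochondrial serine enzyme and EIF4A3 an RNA helicase. TIMM10, for example, was at 54.4, 21.1 and 51.1 CPM in shEV, PHF19_KD and KD_Rescued. The nearest profiles to SLC30A1 were those of LANCL1, RASA1 and CDK13, with differences of 0.03 to 0.04.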

How the data were processed

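RNA-seq of 9 MM1S libraries was analysed from a table of estimated counts per gene, deposited by the authors without scaling between libraries. The submitters' processing notes name CASAVA, RSEM and hg19 without roles, and the table's name refers to salmon. For annotation and strand the sources used here give nothing. Counts were rounded and tested with edgeR 4.0.16 (R 4.3.3, limma 3.58.1), using filterByExpr, TMM and the robust quasi-likelihood test in 1 fit of 8 libraries. A gene was called at a Benjamini-Hochberg value under 0.05, over 16600 tested genes. Normalised CPM use column totals and TMM factors. The script was tested on simulated data. DESeq2 1.42.0, limma-voom, other scalings and filters, a replicate block and leaving out libraries were tried. Within groups, libraries exceeded counting noise (chi-square per degree of freedom 1.37 to 9.15). The highest values, 8.14 and 9.15, were those of shEV replicate 3 against shEV replicates 1 and 2. All other pairs reached at most 2.25. All 9 genes were named, as were the zinc transporters of the fixed lists, at most 3 called rises and 3 called falls of each other list by lowest adjusted p, and the nearest profiles. The library with disagreeing labels was scaled to the same reference and entered no test. The members and lists were chosen with earlier results of these data known. Not every flanking gene is reported here.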

Additional observations from a re-analysis of the deposited data

Results flagged for a closer look

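SLC30A1 in the library with disagreeing labels stood at 166 CPM, above the 123 to 132 CPM of the shEV libraries and the 131 to 145 CPM of the other grouped libraries. This library enters no comparison, and its value exceeded the control level. Its MTF1 level of 27.0 CPM lay within the shEV range of 25.6 to 29.4 CPM.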

How the results depend on the processing

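MT2A and MT1X kept their direction between PHF19_KD and shEV and between KD_Rescued and PHF19_KD in every alternative run that tested them. The filter at 5 CPM removed both genes. Without KD_Rescued replicate 2, MT2A was 3.05 between KD_Rescued and PHF19_KD and -0.51 between KD_Rescued and shEV. The summed metallothionein log2 ratio moved by more than the spread between libraries in 1 alternative, to -1.34 with every listed gene and pseudogene counted. Leaving out 1 library at a time gave -1.60 to -1.44 between PHF19_KD and shEV and 1.29 to 1.55 between KD_Rescued and PHF19_KD. Counts of called genes between KD_Rescued and shEV were 6599, and 4048 to 7539 with 1 library left out, with 4048 without KD_Rescued replicate 2 and 4253 without replicate 1, where the lone rescued library was assumed to vary like the other groups. Called zinc transporters between KD_Rescued and PHF19_KD ranged from 6 (without PHF19_KD replicate 1) to 12 on leaving out 1 library. With upper-quartile scaling SLC30A7, SLC30A9 and SLC39A6 changed sign between PHF19_KD and shEV, to 0.0261, 0.0523 and 0.0028 on the log2 scale, and the shift of all genes under this scaling is given above. Replicate numbers did not pair the libraries (correlations of deviations between -0.03 and 0.03). With a replicate block, 11537, 10341 and 6387 genes were called in the 3 comparisons, against 11476, 10526 and 6599. Without mitochondrially encoded genes, a choice made after seeing the data, 11472 genes were called between PHF19_KD and shEV. Metallothioneins other than MT2A and MT1X had too few counts for a difference to be detectable.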
